A study of Homo sapiens with 20 samples.

Results

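The replication-dependent histone genes were followed through 16 maps of H3K27ac, the acetylation of histone H3 at lysine 27 that marks active promoters and enhancers. They were chosen by position and name: protein-coding GENCODE genes whose symbols begin with H1-, H2AC, H2BC, H3C or H4C and which lie on chromosome 6 or on chromosome 1 in the main histone gene clusters (hg38). This gave 64 of 20033 protein-coding genes: 6 for the linker histone H1, 15 for H2A, 16 for H2B, 13 for H3 and 14 for H4. The first and last start sites of the 4 clusters were chr1:149812370-149887965 with 11 genes, chr6:26017787-26285534 with 32, chr6:27132795-27147106 with 5 and chr6:27807929-27893425 with 16.

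These genes make the histones that package newly replicated DNA. They are transcribed in S phase from a dedicated nuclear compartment, the histone locus body, where the coactivator NPAT is concentrated. Their short messages carry no poly(A) tail and end instead in a conserved stem-loop, which is bound by SLBP and cut with the help of the U7 snRNP. H2A and H2B genes often share a divergent promoter, and their start sites then lie back to back.

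The cells were HCT-116, a line established from a human colorectal carcinoma. They were wild type (WT) or lacked FBXW7 (KO, FBXW7-/-), which encodes the substrate receptor of a ubiquitin ligase, and all were transfected for 48 h with enzymatically prepared small interfering RNA, either a control (esiCT) or one against the class IIa histone deacetylase HDAC4 (esiHDAC4). During the last 24 h they were left untreated (UNT) or exposed to 50 µM oxaliplatin (OXPT), a platinum compound that crosslinks DNA. With 8 combinations of genotype, esiRNA and drug, and a replicate A and a replicate B of each, there were 16 libraries. The labels speak of 3 experiments put together, without saying how these relate to the letters, so A and B may differ by less than independent cultures would. The sources used here do not give the number of KO clones, and a difference between KO and WT cannot be told apart from a difference between these lines.

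The lists held between 1752 peaks (KO esiHDAC4 UNT replicate B) and 27927 peaks (WT esiCT UNT replicate A), and the 4 KO replicate B lists held at most 8216. Where whole reads could be recovered from the deposited values, in 15 of the libraries, the median summit of a histone gene peak held between 10 reads (KO esiHDAC4 UNT replicate B) and 23.5 reads (WT esiHDAC4 UNT replicate B). A start site without a peak was therefore not detected at that depth. Start sites of 6 epithelial marker genes had a peak in 81.3% of their library tests, KRT18 in all 16 libraries. Of 4 intestinal markers CDX2 had a peak in 10 libraries and VIL1, CDX1 and CDH17 in none, and of 7 markers of other cell types only COL1A1 had one, in 3 libraries.

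Promoter sequences are given for the gene with a peak in all 16 libraries that shares its promoter with another such gene (H2AC6, divergent from H2BC4), for the remaining gene with a peak in all 16 (H2AC4), and for a gene of the same family and layout with a peak in none (H2AC8, divergent from H2BC8). Each window holds the 250 bases before the start site and the first 50 from it (RefSeq, GRCh38.p14), and capitals mark, on either strand, the TATA box letters TATAAA, the CCAAT box and the octamer ATTTGCAT. H2AC6 lies at chr6:26123922-26124221 on the plus strand, H2AC4 at chr6:26033569-26033868 on the minus strand and H2AC8 at chr6:26216671-26216970 on the plus strand.
H2AC6: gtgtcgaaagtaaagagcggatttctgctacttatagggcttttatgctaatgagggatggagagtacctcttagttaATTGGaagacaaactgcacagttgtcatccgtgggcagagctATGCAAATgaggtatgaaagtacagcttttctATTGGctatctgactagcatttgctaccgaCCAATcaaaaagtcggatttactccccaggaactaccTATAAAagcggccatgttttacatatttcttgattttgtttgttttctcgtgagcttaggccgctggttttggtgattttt
H2AC4: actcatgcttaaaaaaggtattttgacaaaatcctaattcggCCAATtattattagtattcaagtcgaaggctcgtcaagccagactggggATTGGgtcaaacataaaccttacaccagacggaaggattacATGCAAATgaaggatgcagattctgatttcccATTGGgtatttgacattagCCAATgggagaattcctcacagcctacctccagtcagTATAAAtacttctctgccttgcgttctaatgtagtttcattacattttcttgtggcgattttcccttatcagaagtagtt
H2AC8: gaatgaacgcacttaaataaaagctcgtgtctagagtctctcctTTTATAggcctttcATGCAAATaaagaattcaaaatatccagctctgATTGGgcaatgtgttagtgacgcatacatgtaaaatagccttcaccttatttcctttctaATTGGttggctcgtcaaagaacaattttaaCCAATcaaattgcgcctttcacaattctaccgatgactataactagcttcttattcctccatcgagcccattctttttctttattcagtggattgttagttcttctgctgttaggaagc
All 3 windows held the TATA box letters, the CCAAT box and the octamer, whether or not the gene ever had a peak. Their places differed for TATAAA, which began at base 220 in H2AC6 and 221 in H2AC4, on the strand shown and near the start site. In H2AC8 it began at base 45 on the opposite strand, far from its own start site and near that of H2BC8.

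RefSeq promoters were matched for 59 of the 64 genes, and 55 of these started at the GENCODE start site. TATAAA was found in 66.1% of them and in 11.95% of all 27305 promoters, and CCAAT in 84.7% against 35.7%. The octamer, a binding site of POU2F1 (OCT1), was in 40.7% against 1.802%. By family it stood in 71.4% of H2A and 81.3% of H2B promoters, in 1 of 11 H3 promoters and in no H1 or H4 promoter. AAACACA, the H1 box, was in all 6 H1 promoters and in 5.76% of all promoters. Of the E2F site variants, TTTCGCGC was in 20.3% against 0.546%, and TTTGGCGC in 0.0% against 0.659%. Among the 39 matched genes with a peak in any library and the 20 with none, TATAAA was present in 74.4% and 50.0%, CCAAT in 84.6% and 85.0%, and the octamer in 46.2% and 30%. These are descriptions of letters in a window, and the split follows the peak lists.

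The transcripts showed the stem-loop that sets these genes apart. A perfect 6-base stem with a 4-base loop of the histone form was found near the 3′ end of 58 of the 64 annotated transcripts (90.6%), against 66 of 19688 protein-coding transcripts (0.335%). It came in 5 forms, shown with the stem in capitals and the number of genes that carry each.
35 genes: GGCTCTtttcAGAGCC
9 genes: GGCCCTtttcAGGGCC
9 genes: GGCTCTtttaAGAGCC
4 genes: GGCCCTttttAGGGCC
1 gene: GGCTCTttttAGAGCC
No such match was found for H2AC11, H2AC15, H2BC10, H2BC21, H3C6 and H4C13 in the annotated transcripts. All 64 genes had 1 exon in the canonical transcript.

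Histone genes were marked more often than other genes, and the number of libraries with a peak varied widely among them. A gene counted as called in a library when a peak came within 1 kb of its canonical start site. Over 64 genes and 16 libraries there were 519 calls of 1024 (50.7%), against 29.8% for all protein-coding start sites. In at least 12 libraries 31 of the 64 genes were called (48.4%), against 2572 of 20033 start sites (12.8%), and in 1 to 11 libraries 12 (18.8%), against 47.2%. In no library 21 were called (32.8%), against 40.0% of all start sites. Among the 57 start sites called in all 16 libraries, 3 belonged to this set: H2AC4, H2BC4 and H2AC6.

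In every library the called share of histone genes exceeded that of all start sites. The smallest gap was in WT esiCT OXPT replicate A, with 50.0% of histone genes and 42.9% of start sites. In the shortest list, KO esiHDAC4 UNT replicate B, 15 histone genes (23.4%) and 317 start sites (1.58%) had a peak. The ratio of the 2 shares was 1.23 in the longest list and 14.8 in the shortest.

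**Figure D1:**
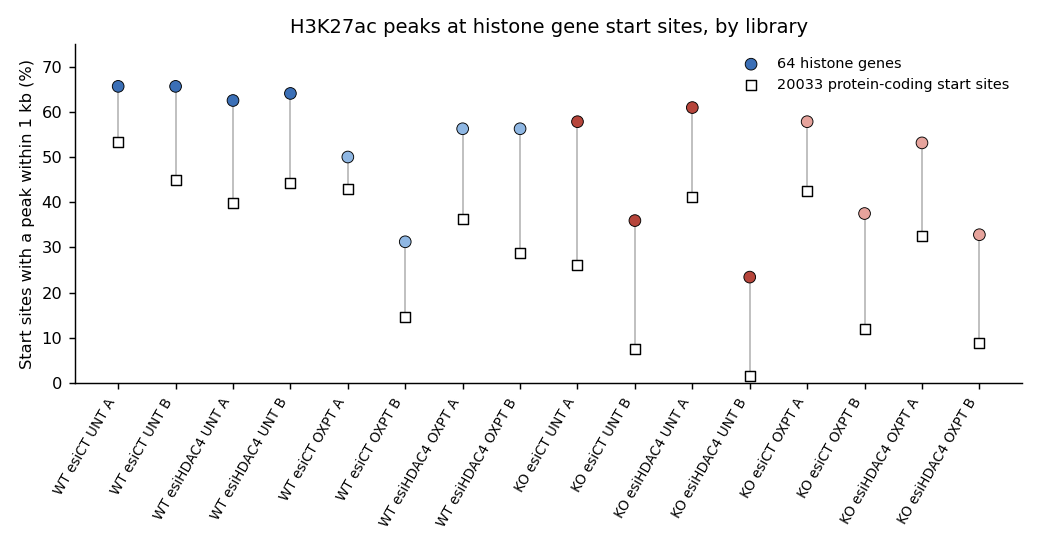
Share of start sites with an H3K27ac peak within 1 kb (vertical axis, percent) in each of the 16 libraries (horizontal axis), filled circles for the 64 histone genes and open squares for all 20033 protein-coding start sites. The circles lie above the squares in all libraries, and the 4 WT UNT libraries lie between 62.5% and 65.6%.

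After these 3, another 7 genes were called in 15 libraries each: H2AC13, H3C2, H1-4, H2AC7, H4C11, H4C12 and H4C2, in order of their median fold enrichment at the summit. The first 3 of these are described together with the 3 above. For H2AC4 the fold enrichment at the summit, the ratio of pileup to local background in the deposited lists, was 8.39 and 6.43 in WT esiCT UNT replicates A and B, 4.97 and 6.77 in WT esiHDAC4 UNT, 5.35 and 4.37 in WT esiCT OXPT, and 5.69 and 4.92 in WT esiHDAC4 OXPT. In KO cells it was 5.11 and 3.90 in esiCT UNT, 5.21 and 3.89 in esiHDAC4 UNT, 5.84 and 5.92 in esiCT OXPT, and 4.89 and 4.65 in esiHDAC4 OXPT. The values of the 4 classes overlapped, and the lowest 2 were both KO UNT replicate B. H3C2, whose start site is the next one along the chromosome, shared the same peak in several libraries. H1-4, a linker histone, missed only WT esiCT OXPT replicate B, and H2AC13 only WT esiCT OXPT replicate A.

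The 21 genes with no peak in any library were not spread evenly along the clusters. H1-3, H4C6, H4C7, H3C7, H2BC9, H3C8 and H2BC10 lay together in a stretch of 59625 bp, chr6:26225356-26284980, in which no library had any peak. A stretch of 25297 bp, chr6:27863431-27888727, held H2AC16, H1-5, H3C11 and H4C13. H1-1 lay in a stretch of 26789 bp at the edge of the chromosome 6 cluster, H1-6, the testis-specific H1, in 11931 bp, H2BC8 and H2AC8 in 10909 bp, and H3C3 in 8825 bp. H2BC6 completed the list on chromosome 6. The testis-specific H2AC1 and H2BC1, which lie outside the chosen windows, had no peak in any library either.

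On chromosome 1 the 4 genes without a peak were H4C14, H3C14, H3C15 and H4C15. These are near-identical copies, and in each of their windows 100% of all 100-base sequences occurred more than once in the genome, so reads from one copy cannot be placed on it with certainty. The absence of a peak there cannot be told apart from that. H2AC18 and H2AC19, another pair of copies with 87.4% repeated sequence, were called in 8 and 13 libraries, with median summits at -1126.5 and -879 bp from the start site. For the 17 never-called genes on chromosome 6 the repeated share was at most 1.84%.

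Families differed in how often they were called. H2A genes were called in 69.6% of their library tests, H2B in 54.7%, H4 in 45.5%, H3 in 39.9% and H1 in 28.1%. Of the 6 H1 genes only H1-2 (12 libraries) and H1-4 (15) had any peak. By cluster the rate was 66.3% in the 5-gene cluster of chromosome 6, 57.4% in the 16-gene cluster, 46.7% in the 32-gene cluster and 45.5% on chromosome 1. The copied genes H4C14, H3C14, H3C15 and H4C15, where a peak could not be placed with certainty, count as uncalled in these rates. They lower the rates of H3, H4 and chromosome 1, and the order of families and clusters without them was not examined. Near neighbours share peaks, since 22 genes had another of the 64 start sites within 1 kb and 20 of these formed divergent pairs less than 300 bp apart. In WT esiCT UNT replicate A the 42 called genes drew on 38 distinct peaks.

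**Figure D2:**
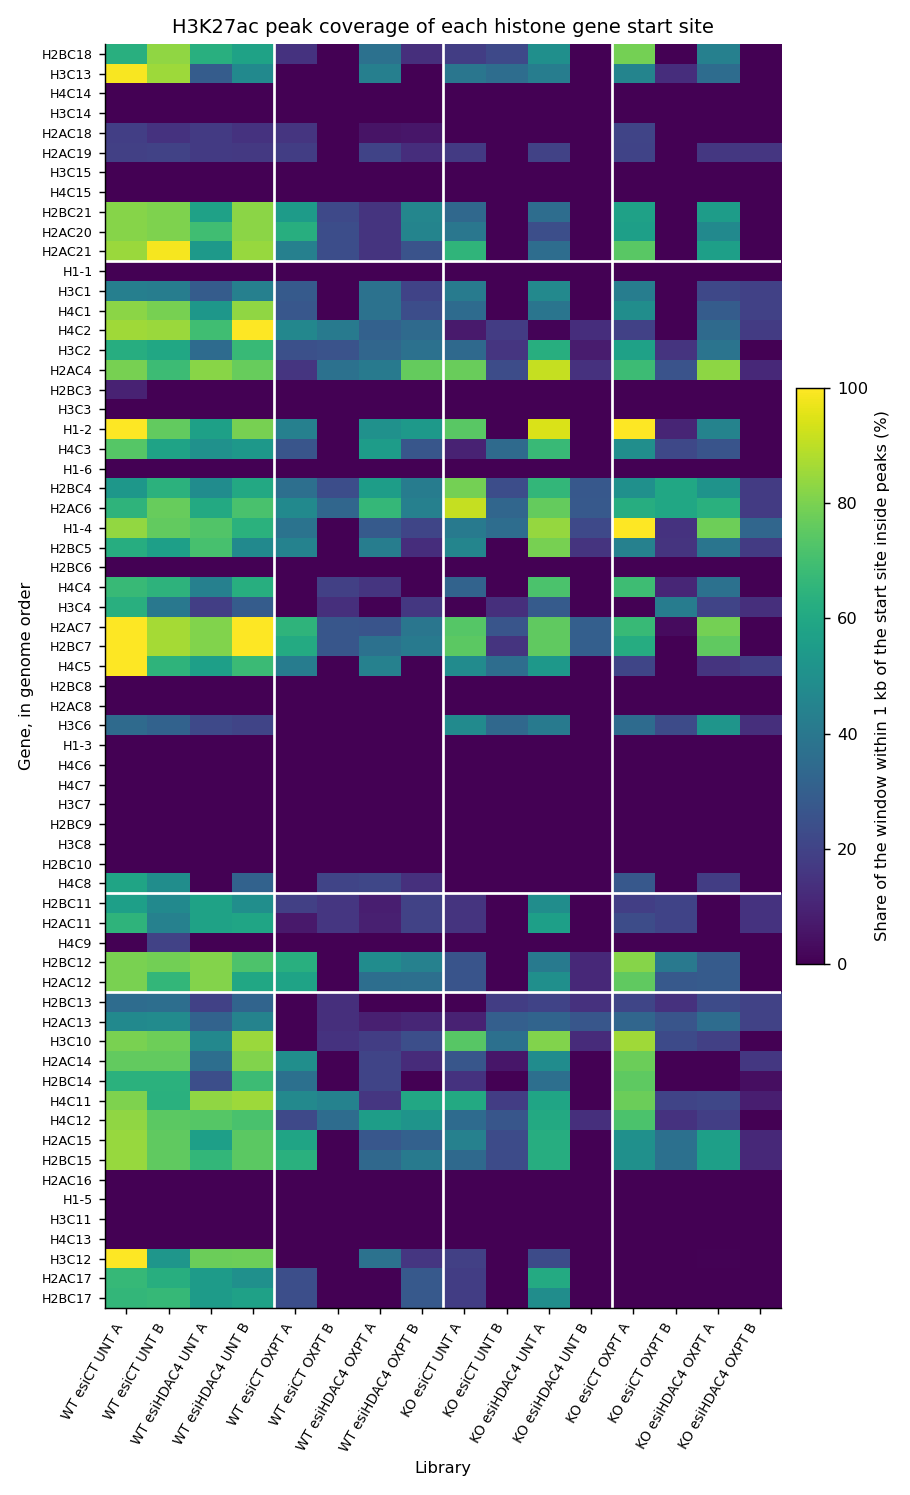
Share of the window from 1 kb before to 1 kb after each start site that lay inside a peak (colour, 0 to 100%), for the 64 histone genes in genome order (rows, white lines between clusters) in 16 libraries (columns, white lines between WT UNT, WT OXPT, KO UNT and KO OXPT). The 21 rows at 0 throughout are the never-called genes, and the first 4 columns, WT UNT, are the brightest.

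The acetylated chromatin lay on both sides of the start sites and seldom on them. Only 33 of 519 calls (6.36%) had the start site inside the peak, against 18.9% of the 95475 calls over all start sites. In the 41 genes called in at least 3 libraries, the start site itself was inside a peak in 13.4% ± 10.3 (SD, n = 4 libraries) of cases in WT UNT. At 700 bp upstream the share was 86.0% ± 5.76 and at 500 bp downstream 81.7% ± 6.14. Over the 10411 start sites called in at least 3 libraries, the same classes gave 22.1% ± 13.9 at the start site, 40.7% ± 10.3 at 500 bp upstream and 60.01% ± 14.1 at 400 bp downstream. The dip at the start was thus flanked upstream by a share that was higher at histone genes by more than the spread between libraries. All 41 histone genes were called in at least 8 libraries, while a start site needed only 3. The higher share therefore also reflects how often a site was called, which was not separated. For the 20 of all 64 genes with a divergent partner less than 300 bp away, this upstream side includes the partner gene.

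In the other 3 classes the same shape was present at a lower level. In WT OXPT none of the 41 start sites was inside a peak in any of the 4 libraries, and the shares were 42.7% ± 12.4 at 600 bp upstream and 34.8% ± 8.77 at 500 bp downstream. KO UNT reached 39.02% ± 28.1 upstream and 35.4% ± 26.8 downstream, and KO OXPT 44.5% ± 24.3 and 34.8% ± 21.6. At 3 kb downstream of the start, beyond the short histone genes themselves, 27.4% of the 41 genes still had a peak in WT UNT, against 2.56% of the 10411 start sites. In the clusters such a peak can lie at a neighbouring histone gene, as H3C10 follows H2AC13, and this was not separated.

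**Figure D3:**
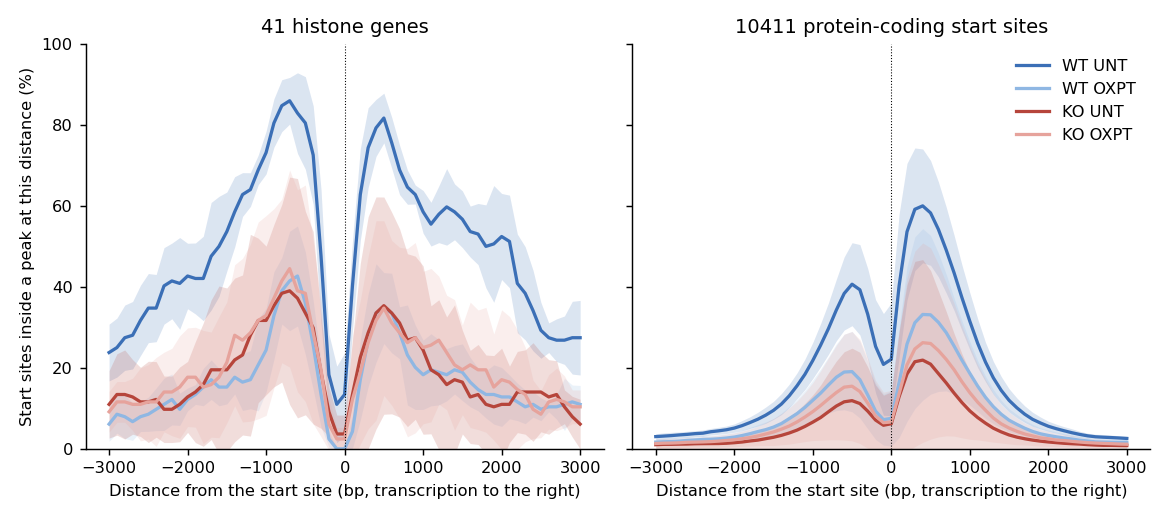
Share of start sites that lie inside a peak (vertical axis, percent) at each distance from the start (horizontal axis, bp, direction of transcription to the right), for 41 histone genes (left) and 10411 protein-coding start sites (right) called in at least 3 libraries. Lines are means and bands SD over the 4 libraries of each class. WT UNT reaches 86.0% upstream of histone genes, where the other classes reach 39.02% to 44.5%.

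The first comparison asked whether loss of FBXW7 changed the mark at histone genes. Fewer of them were called in KO than in WT cells in 6 of 8 matched pairs of libraries, and the difference was -11.5 points ± 17.7 (SD, 8 pairs), against -16.5 points over all start sites. Both differences were smaller than or close to the spread of the pairs. The gap lay between replicates as much as between genotypes: KO esiCT UNT had 37 (A) and 23 (B) genes called, and KO esiHDAC4 UNT had 39 and 15. In a stratified exact test of presence over 9587 start sites called in 3 to 13 libraries, 26 of the 64 genes were eligible and 0 differed after Benjamini-Hochberg adjustment, as did 0.0% of all. The test reaches the threshold only if many start sites share its smallest p values, so the lack of calls does not show equal presence. At an unadjusted p under 0.05 there were 4 of the 26, against 14.1% of start sites.

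Those 4 were H2AC18, H2AC20, H2AC21 and H2BC21, all on chromosome 1 and with adjusted p = 0.246 in the exact test. H2AC20, H2AC21 and H2BC21 were each called in all 8 WT libraries and in 4 of the 8 KO libraries, which were the 4 of replicate A. Their difference between genotypes thus followed the replicate letter in KO cells. H2AC18 was called in 7 WT libraries and 1 KO library.

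Summit fold and width were fitted with limma on 2572 start sites with a peak in at least 12 libraries, 31 of them histone genes. For KO against WT the summit fold of 0 histone genes passed an adjusted p of 0.05, against 0.272% of start sites. At an unadjusted p under 0.05 there were 5 of 31 (12.3% of start sites). H2BC4 came nearest. Its fold ranged from 2.67 to 4.31 with a median of 3.66 in 8 WT libraries, and from 3.61 to 6.76 with a median of 5.20 in 8 KO libraries, so the groups overlapped only in part. The fitted difference was 0.53 ± 0.14 (SE) on the log2 scale (limma, adjusted p = 0.0737). Among the 57 start sites with a peak in all 16 libraries, of which 2 passed, H2BC4 passed as well, at 0.53 ± 0.13 (SE, log2, limma, adjusted p = 0.0073). In replicate A its fold was 2.67 to 3.72 in WT and 3.61 to 4.81 in KO, and in replicate B 3.53 to 4.31 and 5.60 to 6.76. In replicate B of KO esiCT UNT, esiHDAC4 UNT and esiHDAC4 OXPT its nearest peak had the fold and width of that of H2AC6. For H2AC6 the fold ranged from 3.15 to 6.74 in WT and from 3.61 to 6.76 in KO. H2BC15 differed by 0.54 ± 0.17 and H2AC15 by 0.51 ± 0.16, with adjusted p = 0.141 and 0.152 in limma, and in all 7 KO libraries where they were called these divergent neighbours shared the same peak.

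Peak width gave 0 of 31 genes after adjustment (0.0778% of start sites) and 7 of 31 at an unadjusted p under 0.05 (8.28%). The fitted difference was 1.13 ± 0.38 (SE, log2) for H2BC15, -1.28 ± 0.44 for H2AC14 and -1.07 ± 0.37 for H4C2, none past the threshold (limma, adjusted p = 0.314, 0.338 and 0.34). H4C2 had peaks of 448 to 5167 bp in WT (median 2330, 8 libraries) and 261 to 1634 bp in KO (median 358, 7 libraries). The median width of called genes in KO against WT differed by -0.27 ± 0.86 (SD, log2, 8 pairs), within the spread of the pairs.

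The second comparison asked what oxaliplatin did. In WT cells the histone genes kept fewer and narrower peaks, and in KO cells they did not move together. WT UNT libraries had 42, 42, 40 and 41 genes called (esiCT A and B, esiHDAC4 A and B), and WT OXPT libraries 32, 20, 36 and 36, so the groups did not overlap. In such bulk samples fewer cells with the mark and less of the mark per cell cannot be told apart. KO UNT libraries had 37, 23, 39 and 15, and KO OXPT libraries 37, 24, 34 and 21. Over the 4 WT pairs the called share changed by -16.02 points ± 12.9 (SD), close to the -14.9 ± 11.3 over all start sites. In all 8 pairs together the share differed by -7.62 points ± 13.2 (SD), against -5.03 points over all start sites. The exact test found 0 of 26 genes after adjustment (0.0% of start sites) and 0 at an unadjusted p under 0.05 (0.615%). The lowest p values for presence were those of H2AC17, H2BC17 and H3C13, and all had an adjusted p = 1 in the exact test.

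Median widths of called genes showed the change most plainly. In WT UNT they were 1269, 1430, 1032 and 1115 bp (esiCT A and B, esiHDAC4 A and B), and in WT OXPT 567, 476, 480 and 409 bp. The 4 untreated values all lay above the 4 treated ones. In KO UNT they were 796, 463, 863 and 493 bp, and in KO OXPT 949, 597, 799 and 344 bp, where the groups overlapped. Over all start sites the same WT libraries gave 754 bp ± 171 and 546 bp ± 115 (SD, n = 4), and the WT histone genes 1211 bp ± 176 and 483 bp ± 64.8. The log2 ratio over the 4 WT pairs was -1.32 ± 0.23 (SD), against -0.46 ± 0.30 over all start sites.

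**Figure D4:**
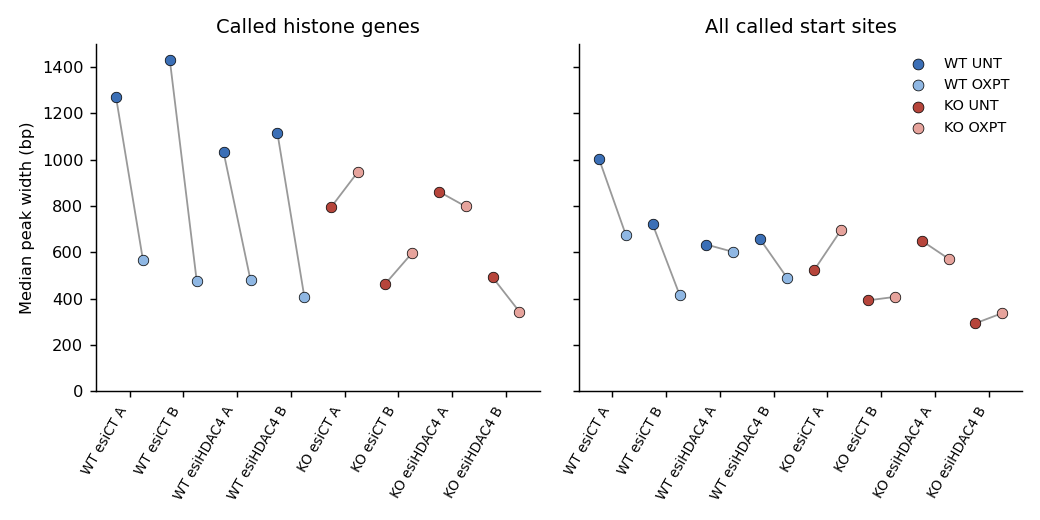
Median width of the peak nearest to the start site (vertical axis, bp) in UNT and OXPT libraries, joined for each combination of genotype, esiRNA and replicate (horizontal axis), for called histone genes (left) and all called start sites (right). All 4 WT lines of the histone genes run downward, from 1032 to 1430 bp in UNT to 409 to 567 bp in OXPT, and the KO lines go in both directions.

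Gene by gene, 30 of the 32 genes called in both WT esiCT libraries of replicate A had the narrower peak under OXPT (93.8%, against 77.6% of start sites), and 19 of 20 in replicate B (95.0% against 89.5%). In WT esiHDAC4 it was 27 of 35 (77.1% against 55.2%) and 33 of 36 (91.7% against 75%). In KO esiCT it was 9 of 34 (26.5% against 25.9%) and 7 of 17 (41.2% against 46.3%). In KO esiHDAC4 it was 23 of 33 (69.7% against 63.3%) and 6 of 8 (75% against 28.8%). The background moved the same way in WT, and 3 of the 4 KO shares lay near it. In WT the length of the lists moved too, to 0.87, 0.42, 1.00 and 0.71 times the untreated number of peaks in the same 4 pairs. The part of list length in the narrowing was not tested.

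When every library was centred on start sites called in all 16, the drug's effect on width at single genes did not pass the threshold. The limma fit over both genotypes gave 0 of 31 genes after adjustment (0.0% of start sites) and 4 of 31 at an unadjusted p under 0.05, all narrower (6.77%). The median of the 31 differences was -0.38 on the log2 scale, with 26 below 0, against a median of 0.08 over 2572 start sites. H2BC7 had the lowest p. Its peaks ran from 605 to 3134 bp in UNT (median 1095, 8 libraries) and from 396 to 880 bp in OXPT (median 514, 6 libraries), a fitted -1.14 ± 0.37 (SE, log2, limma, adjusted p = 0.439). H2AC13 and H4C2 both differed by -0.78 (SE 0.33 and 0.37; limma, adjusted p = 0.625 and 0.718).

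The change under OXPT in WT was taken from a fit of all 16 libraries with a genotype by drug term. For width, 8 of 31 genes had an unadjusted p under 0.05 there (6.34% of start sites). Of these, 7 were narrower, and 0 of the 31 passed after adjustment (0.0%). H2AC13 was lowest by p, at -1.30 ± 0.49 (SE, log2, limma, adjusted p = 0.722). H2BC4 was the 1 wider gene, at 1.13 ± 0.53 (its nearest peak was narrower than that of its divergent partner H2AC6 in all 4 WT UNT libraries). For summit fold over both genotypes 0 of 31 genes passed after adjustment (0.0389% of start sites) and 0 at an unadjusted p under 0.05 (7.54%). The lowest p values were those of H2BC7 (-0.31 ± 0.17, SE, log2), H2AC7 (-0.24 ± 0.15) and H2BC11 (0.25 ± 0.17), with limma adjusted p between 0.702 and 0.788.

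The share of the window inside peaks combines loss and narrowing and could be given for every gene, also where a peak was missing. It was fitted with limma on 10411 start sites called in at least 3 libraries, 41 of them histone genes, a measure taken up after the values above had been seen. Over all 64 genes the mean share was 40.3% ± 5.07 (SD, n = 4) in WT UNT and 15.3% ± 5.16 in WT OXPT, and 17.0% ± 12.8 and 16.8% ± 11.9 in KO UNT and KO OXPT. Over all start sites it was 20.9% and 10.5% in WT and 6.68% and 8.37% in KO. All 41 genes had a lower mean share under OXPT in WT, as did 93.7% of the 10411 start sites. In KO the share was lower in 20 genes and higher in 21, and 32.97% of start sites were lower.

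In WT, 24 of the 41 genes fell under OXPT at an adjusted p under 0.05, against 11.9% of start sites, and 0 rose. In 28 of 41 genes (68.3%) all 4 OXPT libraries lay below all 4 UNT libraries, against 11.4% of start sites, and in 0 genes all lay above (0.0%). The median fitted change was -40.7 points, against -18.9 over all start sites, from a higher untreated share in histone genes. The OXPT to UNT ratio of the mean share was 0.42 and 0.18 in WT esiCT (A and B), against 0.59 and 0.16. In WT esiHDAC4 it was 0.52 and 0.41, against 0.84 and 0.46. In replicate B the proportional fall was thus near that of all start sites. All 41 genes were called in at least 8 libraries, while a start site needed only 3 to be included. In KO cells 0 of 41 passed (0.0% of start sites), 0 genes had all OXPT libraries below (0.0%) or above (0.202%) all UNT libraries, and the median change was 0.17 points, against 2.62. Over both genotypes 0 genes passed (0.0%).

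H3C12 had the lowest p in WT. Its window was covered to 100%, 52.4%, 77.6% and 78.1% in WT UNT (esiCT A and B, esiHDAC4 A and B) and to 0.00%, 0.00%, 37.7% and 15.99% in WT OXPT. The groups did not overlap, and the fitted change was -63.6 points ± 9.31 (SE, limma, adjusted p = 0.00464). H4C2 was covered to 85.7%, 85.0%, 69.3% and 100% in WT UNT and to 46.4%, 41.3%, 31.1% and 34.6% in WT OXPT. All treated values lay below all untreated ones, with a change of -46.6 points ± 9.04 (SE, limma, adjusted p = 0.0122).

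The next genes by p came from every family. The change was -52.6 points ± 11.01 (SE) for H4C1, -50.9 ± 10.7 for H4C5 and -48.4 ± 10.3 for H2BC17, all with limma adjusted p = 0.0149. It was -34.8 points ± 7.89 (SE) for H2AC13, -52.2 ± 12.2 for H1-4 and -45.8 ± 11.3 for H2AC17, with limma adjusted p = 0.0181, 0.0198 and 0.0239. H3C13 and H2AC11 completed the first 10, at -54.5 points ± 13.5 and -43.7 ± 10.8 (SE, limma, adjusted p = 0.0239 and 0.0241). For H1-4 the values in both genotypes are given, although its interaction did not pass (limma, adjusted p = 0.101). Its window was covered to 83.8%, 75.9%, 73.0% and 63.97% in WT UNT, 38.3%, 0.00%, 28.3% and 21.1% in WT OXPT, 40.7%, 35.6%, 84.4% and 22.2% in KO UNT, and 100%, 14.7%, 78.1% and 33.1% in KO OXPT.

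The calls in WT depended on how libraries were put on 1 scale. With each library centred on its mean over start sites, 0 of 41 genes passed, although 37 lay below 0 with a median of -21.2 points against 0.60 (smallest limma adjusted p = 0.0618). Without WT esiCT OXPT replicate B, the WT library with the shortest list, 2 of 41 passed, and without WT esiCT UNT replicate B 3.

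**Figure D5:**
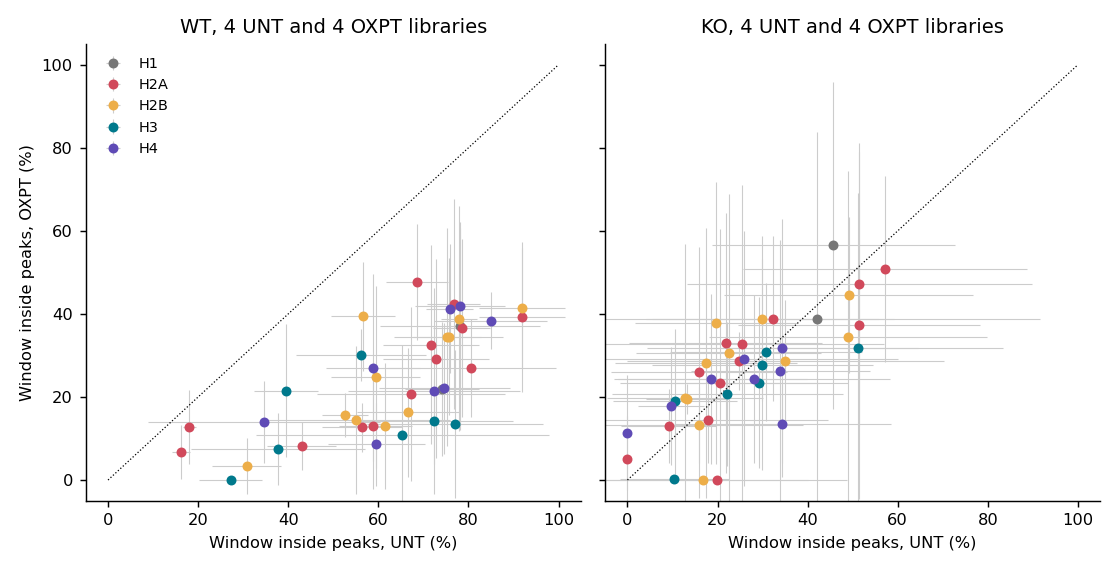
Share of the window within 1 kb of the start site that lay inside peaks, OXPT (vertical axis, percent) against UNT (horizontal axis, percent), for 41 histone genes coloured by family, in WT (left) and KO (right). Points are means and bars SD over 4 libraries, and the dotted line marks equal shares. In WT all 41 points lie below the line, and in KO they lie on both sides of it.

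Complete switches were few. Under OXPT in WT esiCT, 3 genes had a peak in both UNT libraries and in neither OXPT library, H3C6, H3C12 and H3C13 (5.91% of start sites), and 0 did the reverse (0.0599%). H3C6 stood out among them. Its window was covered to 34.6%, 31.6%, 21.9% and 20.7% in WT UNT and to 0.00% in all 4 WT OXPT libraries, while KO UNT gave 48.0%, 33.8%, 41.1% and 0.00% and KO OXPT 34.9%, 23.04%, 52.1% and 13.6%. It was thus called in 7 of 8 KO libraries and, in WT, only without the drug. Its summit fold was 4.496, 2.46, 3.51 and 2.27 in WT UNT, 6.35, 5.63 and 6.81 in the 3 KO UNT libraries with a peak, and 6.25, 4.93, 6.46 and 4.68 in KO OXPT, so that all KO values lay above all WT values. With a peak required in at least 8 libraries, it was the 1 histone gene of 41 to pass for KO against WT (1.19 ± 0.22, SE, log2, limma, adjusted p = 0.0116), among 5 of 6899 start sites. In that fit its WT values came from untreated libraries alone, since missing peaks were left out. In KO esiCT 0 genes were lost under OXPT (0.0899%) and 0 gained (2.09%).

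Whether the response to OXPT differed between KO and WT was tested as an interaction. Summit fold gave 0 of 31 genes after adjustment (0.0% of start sites) and 1 at an unadjusted p under 0.05 (6.18%), H2AC19, one of the copied genes, at 0.67 ± 0.33 (SE, log2, limma, adjusted p = 0.804). H2BC12 (0.50 ± 0.34) and H4C11 (-0.40 ± 0.31) followed. Width gave 0 of 31 after adjustment (0.0389%) and 3 at an unadjusted p under 0.05 (4.2%): H2BC4 at -1.93 ± 0.74, H2BC12 at 2.21 ± 0.85 and H2AC14 at 1.89 ± 0.84 (SE, log2, limma, adjusted p = 0.986 for each). For the covered share 0 of 41 genes passed (0.0%), with the lowest limma adjusted p at 0.0980. All 41 fitted interactions were above 0 there, with a median of 38.5 points, against 21.8 over all start sites. A different response in the 2 genotypes was therefore not shown for any single gene.

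For KO against WT, the covered share of 6 genes was lower at an adjusted p under 0.05, against 15.8% of start sites, close to the 6 of 41 seen here. They were H4C2, H3C12, H2BC17, H2AC20, H2AC17 and H4C12. H4C2 led with -47.9 points ± 9.19 (SE, limma, adjusted p = 0.00955). Its windows were covered to 7.096%, 17.9%, 0.850% and 13.04% in KO UNT and 19.3%, 0.00%, 34.5% and 17.3% in KO OXPT, below all 8 WT values except in KO esiHDAC4 OXPT replicate A, which lay within their range. Without the 4 KO replicate B libraries 0 of 41 genes passed.

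After silencing of HDAC4 the histone genes differed from the controls by less than the spread of the 8 pairs of libraries. The called share differed by 0.98 points ± 11.2 (SD, 8 pairs), against -1.31 over all start sites, the log2 summit fold by -0.06 ± 0.13 and the log2 width by -0.24 ± 0.28. Within WT the log2 ratio of median widths was below 0 in 4 of 4 pairs, at -0.28 ± 0.06 (SD), against -0.18 ± 0.37 over all start sites, while the median of the gene by gene ratios was -0.18 ± 0.25. In KO OXPT the gene by gene ratio was -0.63 ± 0.23 (SD, 2 pairs), against -0.31 ± 0.04. There 24 of 32 genes (75%) had the narrower peak under esiHDAC4 in replicate A and 12 of 14 (85.7%) in B, against 68.1% and 67.9% of start sites. Presence differed for 0 of 26 genes after adjustment (0.0%) and for 0 at an unadjusted p under 0.05 (0.125%) in the exact test. In limma, summit fold gave 0 of 31 after adjustment (0.0%) and 0 unadjusted (4.04%), and width 0 (0.0%) and 1 (3.62%). That 1 was H4C2, at 0.77 ± 0.37 (SE, log2, limma, adjusted p = 0.999). H3C2 and H1-2 followed for width, and H2AC14, H3C10 and H2AC12 had the lowest p for fold, all with limma adjusted p of 0.970 or above. The covered share gave 0 of 41 (0.0%).

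Within the treated cells, esiHDAC4 against esiCT lost 0 genes (1.38% of start sites) and gained 0 (0.135%) in KO. In WT it lost 0 (0.614%) and gained 1 (1.08%), H3C12, which had no peak in WT esiCT OXPT and was covered to 37.7% and 15.99% in WT esiHDAC4 OXPT. The WT esiCT OXPT libraries differed between themselves, with 32 and 20 genes called.

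Other genes of the histone pathway had narrower peaks than the clustered genes in WT UNT, but not in every class. The 12 replication-independent histone genes found, among them H3-5 with no peak in any library, were called in 50.0% of tests. Their share was 83.3% in WT UNT and 31.3% in KO UNT, where the clustered genes had 64.5% and 44.5%. Their median width was 659 bp in WT UNT and 595 bp in WT OXPT, where the 64 clustered genes pooled over libraries had 1152 and 485 bp and all start sites 752 and 567 bp. In KO UNT and KO OXPT they had 868 and 757 bp, and the clustered genes 667 and 669 bp. The 23 genes found for histone gene transcription and 3′ end processing were called in 56.8%. NPAT was called in 11 libraries, SLBP, the stem-loop binding protein, in 9, and CCNE2, a cyclin E, in 1. Their widths were 667 and 653 bp. The 10 histone chaperones were called in 43.8% (741 and 452 bp), from CHAF1B and ATRX in 1 library to DAXX and RBBP4 in 13.

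The 29 S-phase replication factors were called in 39.01%, with widths of 553 and 542 bp. CDT1 and TYMS reached 13 libraries, and E2F1, GINS2, RPA3 and POLA1 had no peak. The 22 other protein-coding genes whose start sites lie within the histone windows were called in 34.7% (800 and 538 bp). The 6 epithelial markers, called most often, went from 1474 to 985 bp. These lists are given as counts and medians, without a test of their difference from the histone genes.

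Super-enhancers (SEs), clusters of peaks joined by the authors, reached the histone genes about as rarely as other genes. Over the 16 SE lists 4 genes had their start site inside one, each in 1 library, which is 0.391% of 1024 tests, against 0.348% over all start sites. H2AC14 and H2BC14 lay in an SE of 12048 bp, chr6:27810145-27822192, in WT esiHDAC4 UNT replicate B, and H2BC4 and H2AC6 in one of 9217 bp, chr6:26117787-26127003, in KO esiCT OXPT replicate B. The study kept only SEs that also carried H3K4me1, and whether the deposited lists were taken before or after that step was not stated.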

How the data were processed

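H3K27ac ChIP-seq was performed in 16 libraries of HCT-116 cells, and the 4 input samples of the labels were not used here. Per the labels and the study's methods, the authors used Trimmomatic 0.39 for trimming, Bowtie2 2.4.4 for alignment to hg38, SAMtools 1.18 for removal of duplicate reads, MACS2 2.2.7.1 for peaks of single libraries and ROSE for SEs. In the deposited peak lists, fold enrichment is the ratio of summit pileup to local background, p-values and q-values are given as −log10, and the deposited score is an integer made from the q-value. SE lists give positions alone. Read counts, read totals and the H3K4me1 maps were not used here.

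Groups came from the labels. Gene names, start sites and transcripts came from GENCODE version 44. The nearest peak within 1 kb of the canonical start site was taken, so a missing peak also reflects list length and depth, and a peak can serve 2 neighbouring genes. Members, lists and measures were chosen with earlier results of these data known. Named genes followed a fixed rule: the 6 called in most libraries (ties by the highest median fold), all never called, up to 10 with the smallest adjusted p in a fit or the 3 smallest where none passed, complete switches, testis genes, near-identical copies, and the genes with the widest (H2AC15, median 1400 bp) and narrowest (H2BC11, 399 bp, among genes called in at least 3 libraries) peaks. H2BC3 and H4C9 were each called in 1 library only.

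Presence was tested with a two-sided exact conditional test with replicate letter as strata, over start sites called in 3 to 13 libraries. Fold and width on the log2 scale and the covered share were fitted with limma 3.58.1 (R 4.3.3), with replicate letter, genotype, esiRNA and drug as terms, and for fold and width each library was centred on its median over start sites called in all 16. For the interaction and for OXPT within 1 genotype, a genotype by drug term was added. Those fits also used all 16 libraries, so the p-values for OXPT in WT rest on the spread of the KO libraries as well. Benjamini-Hochberg adjustment ran over all start sites tested, with a threshold of 0.05. The p-values measure the spread between these libraries. Everything else used Python 3.11.15, pandas 2.3.3, numpy 2.4.6 and scipy 1.17.1. The letter stayed in the models because the study's own design has it. Whether same-lettered libraries deviated together was checked: the A minus B differences of 28 pairs of groups correlated by -0.113 to 0.378 for fold (12 pairs over 0.1) and by -0.0925 to 0.488 for width (13 pairs over 0.1).

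On simulated data for OXPT against UNT with 2572 start sites, 200 of them changed by 1 on the log2 scale, limma recovered 99.5% for fold and 20.5% for width. On 9587 simulated start sites with 200 complete switches, the presence test recovered 100% for OXPT against UNT. With so few libraries in each stratum, its smallest p values pass adjustment only if many start sites reach them together. The simulated switches did so, and fewer real ones might not have passed. Alternatives were a window of 500 bp, only peaks with −log10 q of at least 10 or fold of at least 4, equal list lengths of 1752 peaks, the strongest peak in place of the nearest, no centring, other minimum numbers of libraries, no replicate block, and leaving out each library.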

Additional observations from a re-analysis of the deposited data

Results flagged for a closer look

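Under OXPT the median width of histone gene peaks moved in opposite directions in the 2 genotypes after control silencing, with both libraries of each on its own side. The log2 ratio of OXPT to UNT was -1.1623 and -1.5865 in WT esiCT (replicates A and B) and 0.2536 and 0.3655 in KO esiCT. Over all start sites it was -0.57 and -0.79 in WT esiCT and 0.41 and 0.05 in KO esiCT, the same directions. In KO esiHDAC4 the histone gene ratio was -0.11 and -0.52, so the opposite movement did not extend to those libraries. The mean share of the windows inside peaks moved by -26.4821 and -33.8768 percentage points in WT esiCT and by 8.6839 and 0.7153 points in KO esiCT. Over all start sites the share moved by -12.1 and -17.1 points in WT esiCT and by 9.56 and 1.02 points in KO esiCT, and the peak lists held 0.87 and 0.42 times as many peaks in WT and 1.73 and 1.34 times as many in KO. The difference between these 2 pairs of libraries was not tested by itself. In the fit over all libraries the interaction passed for no single gene.

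The SE lists, outside the main measurement, placed the start sites of 4 histone genes in an SE, each in 1 of 16 libraries. That was 0.391% of their tests, close to the 0.348% over all start sites. Their number was not compared between groups.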

How the results depend on the processing

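Of 526 comparisons of a result with an alternative, over 24 results, 498 stayed near the main value. A difference counted as near when it moved by less than the SD of the pairs, and a count when it changed by a small factor. The sign was not part of this rule. A count of 0 that stayed at 0 also counted as near, which held for every alternative of the presence test. For counts that could hardly leave 0, the tally does not measure stability. With each library left out in turn, the difference in called share for esiHDAC4 against esiCT ran from -2.34 to 4.82 points. The difference in median width for esiHDAC4 against esiCT was 0.0517 with only peaks of −log10 q of at least 10. The summit fold of KO against WT gave 1 gene with a peak required in all 16 libraries (H2BC4) and 1 with a peak in at least 8 (H3C6), and 0 to 1 when each library was left out in turn, H2BC4 without KO esiHDAC4 UNT replicate B. With −log10 q of at least 10 the fits of fold and width were not run, since too few start sites had a peak in all 16 libraries.

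The covered share and its alternatives were chosen after seeing the data, as were replicate A alone, unique windows, distinct peaks and leaving out the 4 KO replicate B libraries. For OXPT in WT, 24 genes passed, 0 with centring on the library mean, 12 without the 4 KO replicate B libraries and 4 with no replicate block, with 2 to 35 when each library was left out. The low values were 2 without WT esiCT OXPT replicate B, 3 without WT esiCT UNT replicate B, 5 without WT esiHDAC4 UNT replicate B, 6 without WT esiHDAC4 OXPT replicate A, 8 without WT esiCT UNT replicate A and 14 without WT esiCT OXPT replicate A, and the high value came without WT esiHDAC4 UNT replicate A. For KO against WT, 6 genes passed, 2 with centring, 0 without the 4 KO replicate B libraries and 2 with no replicate block, and 2 to 14 when each library was left out. For the interaction the range was 0 to 20, the high value without WT esiHDAC4 UNT replicate A and 2 without KO esiHDAC4 UNT replicate A. The cause of these shifts was not tested. For presence, fold and width, 0 histone genes passed with no replicate block.

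Depth limits all of this. A missing peak in a short list is a lack of detection, the KO replicate B lists are the shortest, and widths depend on the same detection.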

Other observations

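The peak-free stretches of 59625 and 25297 bp, which held histone genes that were never called, were bordered by histone genes called in 8 to 14 libraries. H3C6, called in 11 libraries, borders the stretch of 59625 bp without any peak, and H4C8 on its far side was called in 8. H3C12, H2AC17 and H2BC17, beyond the peak-free stretch of 25297 bp, were called in 9, 8 and 8 libraries, and H2AC15 and H2BC15 before it in 14 each. H2AC17 and H2BC17 were called in 4 of 4 WT UNT, 2 of 4 WT OXPT, 2 of 4 KO UNT and 0 of 4 KO OXPT libraries. For H2AC17 and H2BC17, 0 of 4 libraries does not show that the mark was absent, since the lists were short in KO.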
